A study of Oryza sativa Japonica Group with 3 samples.

Results

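Messenger RNA of rice seedlings grown from seed implanted with nitrogen ions at high fluence was compared with that of untreated seedlings, locus by locus. FPKM (a level per kilobase of transcript that is also scaled to the sequencing depth of the library) was summed over the transcripts of each annotated locus, and a locus was kept if it was above 0 in all 3 libraries of the series and had a mean of at least 10 FPKM over them. This left 9258 of 55759 annotated loci, of which 696 differed at least 2-fold between high fluence and control on the scale of FPKM + 1. All groups were whole seedlings of Xindao-18, a cultivar of Japonica rice (Oryza sativa), cultured for 96 h at 28 °C on moistened filter paper under 12 h of light and 12 h of darkness. Control seeds received no ions. The high fluence library mixed equal amounts of RNA, 10 µg each, from a pool given 6 and a pool given 8 in units of 1e+17 ions per square centimetre. Its growth by day 7 differed significantly from the control, per the labels. The low fluence library mixed in the same way the pools given 1 and 2 in that unit, whose growth did not differ significantly. Each RNA pool came from 50 buds of similar height. Every group is therefore 1 pooled library without a replicate, so the comparison has no p-value and the spread between samples is unknown. Values are given below for untreated seedlings (the control library) and after low and high fluence.

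Implantation with low-energy ions is used in plant mutation breeding. The ions deposit energy, mass and charge in the seed, can damage DNA directly and through reactive oxygen species, and at high fluence lower germination and slow seedling growth. A rice seedling a few days after sowing is in transition from the reserves of the endosperm to its own photosynthesis, while shoot, root and remaining seed each contribute RNA. In such bulk samples, fewer cells of a type and less RNA per cell cannot be told apart.

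The deposited files name loci by identifiers of the form LOC_Os and do not pair them with gene names. None of the 55759 identifiers matched the reference gene table as written. Without the LOC_ prefix 1 matched a listed synonym, OsCCC2, which read 0.361 FPKM untreated, 0.0804 after low and 0.178 after high fluence and so fell under the minimum level. No function is therefore assigned to any of the 9258 loci kept, and markers of shoot, root or endosperm were not checked. The loci are described instead by level, size of difference, chromosome, neighbours and transcripts.

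At high fluence, loci that stood lower than in the control outnumbered those that stood higher. Of the 9258 loci, 219 (2.37%) stood at 2-fold or more above the control and 477 (5.15%) at 2-fold or more below it, together 7.52%, and the lower ones made up 68.5% of the loci that differed. These counts describe a pair of libraries and carry no test. The same threshold between low fluence and control, which share the control library with this comparison, gave 84 higher (0.907%) and 95 lower (1.03%), together 1.93%. The split depended on the scaling of the libraries. Median-of-ratios scaling, which moved the median log2 ratio of the loci kept from -0.15 to -0.04, gave 297 higher and 380 lower, 56.1% lower, with 7.34% of loci differing. Centring each ratio on the median of loci of like level gave 349 higher and 335 lower, 49.0% lower, with 7.39% differing. Setting the FPKM total of every library to 1000000 gave 1043 higher and 45 lower, 4.14% lower, with 23.6% differing. That total is governed by 2 assembled transcripts that held 73.3% of the FPKM sum of the control and 53.0% of that at high fluence.

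**Figure D1:**
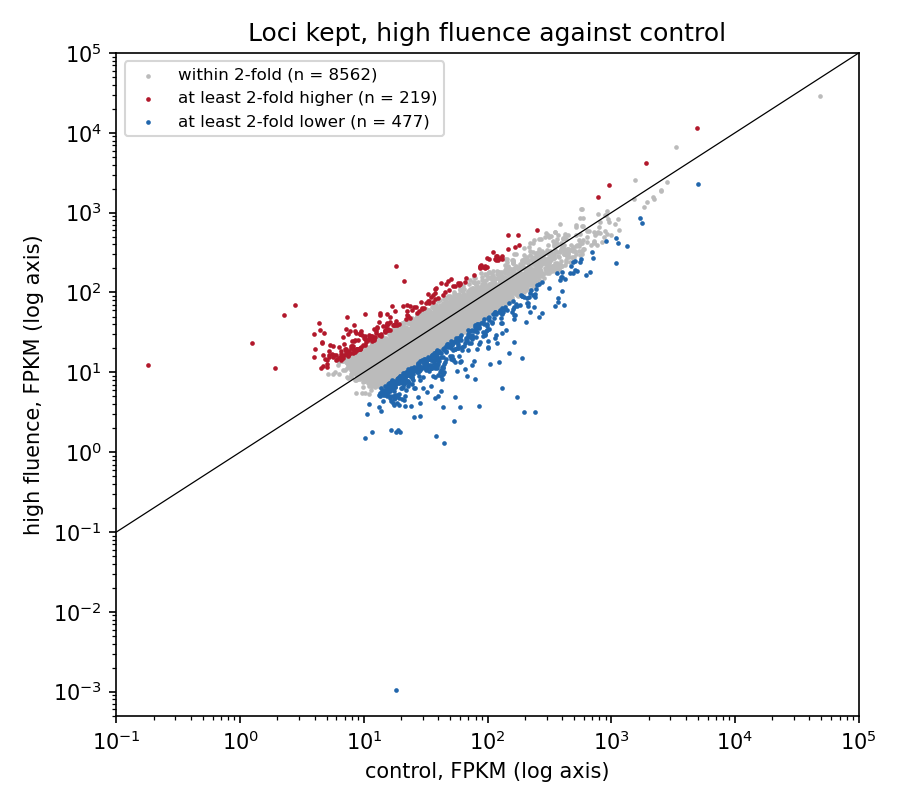
Level of each of the 9258 loci kept in the control (x axis) and at high fluence (y axis), in FPKM on log axes, 1 point a locus; red marks the 219 loci at least 2-fold higher, blue the 477 at least 2-fold lower, and the line marks equal values. The blue points reach farther from the line than the red ones, down to 3.18 FPKM at high fluence for a locus at 242 in the control and to 0.00105 for one at 18.1.

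The lower loci were the more abundant ones in untreated seedlings. Their median level was 39.2 FPKM in the control (quartiles 22.3 and 89.0), against 25.5 over all loci kept, and 13.7 at high fluence. The higher loci had a median of 12.7 FPKM in the control (quartiles 7.66 and 33.2) and 34.3 at high fluence. Loci picked for a low ratio are bound to be higher in the control than loci picked for a high one, so these medians are a description only. Summed over members, the lower loci held 9.28% of the FPKM of all loci kept in the control and 4.01% at high fluence. The higher loci held 2.64% and 7.29%. At low fluence the corresponding shares were 7.27% for the lower loci and 4.23% for the higher ones.

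Large differences were more often downward in FPKM as deposited. At least 3-fold, 43 loci were higher and 130 lower. At least 4-fold, the counts were 18 and 64, and at least 8-fold, 6 and 16. Whether this excess holds under other scalings was not tested, and the split at the 2-fold threshold depended on the scaling. The filter bears on it as well, since the mean of at least 10 FPKM includes low fluence. Where low fluence lies near the control, a fall passes more easily than a rise of like size and peak level. At the 2-fold threshold 68.5% of differing loci were lower, against 61.6% without the filter on the mean and 70.0% at a minimum mean of 50. For larger differences the part of the filter was not tested. Adding a constant to FPKM before taking ratios also makes changes of low loci come out too small. This bears more on the higher loci, which had the lower median level in the control. The 16 lower loci of at least 8-fold lay on 9 chromosomes, and 13 of them have a single annotated transcript. They ranged from 18.1 to 242 FPKM in the control (median 82.0) and from 0.00105 to 17.4 at high fluence (median 3.78). Their range at low fluence was 17.8 to 309 FPKM, with a median of 75.8, near that of the control. Single loci went both ways, with log2 ratios of low fluence to control from -1.61 for LOC_Os08g41860 to 0.67 for LOC_Os02g10390. Together the 16 loci summed to 1685 FPKM untreated, 1718 after low and 93.7 after high fluence. The 6 higher loci of at least 8-fold ranged from 0.180 to 18.1 FPKM in the control (median 2.52), from 1.52 to 31.1 at low fluence (median 7.37) and from 12.2 to 217 at high fluence (median 47.2).

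The 347 loci that were 2-fold to under 3-fold lower had medians of 37.3 FPKM untreated, 27.1 after low and 15.4 after high fluence. For the 66 loci of 3-fold to under 4-fold the medians were 42.4, 30.3 and 11.5, and for the 48 of 4-fold to under 8-fold they were 50.6, 36.2 and 9.86. The low fluence median lay between the other two in each class, and closest to the control, relative to its level, in the class of at least 8-fold given above. In that class single loci lay on both sides of the control at low fluence, so its median is no order of each locus. Whether the classes differ in the place of the low fluence median was not tested, and all of them were chosen by a ratio that uses the control. Among the higher loci, the 176 of 2-fold to under 3-fold had medians of 15.2, 24.2 and 35.0 FPKM in the control, at low and at high fluence.

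The loci with the extreme ratios belonged to different levels of expression. LOC_Os03g39610 on chromosome 3 stood at 242 FPKM untreated, 309 after low and 3.18 after high fluence, and its log2 ratio of high fluence to control was -5.86. All of its FPKM was assigned to 1 of its 2 transcripts. LOC_Os09g17740 on chromosome 9, with a single transcript, stood at 198, 250 and 3.23 FPKM, a log2 ratio of -5.55. Both loci were among the well expressed ones in the control and at low fluence, and near the bottom of the levels kept at high fluence. Under the alternatives tried their log2 ratios stayed between -6.20 and -4.80 and between -5.89 and -4.50.

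On the higher side, LOC_Os03g47610 on chromosome 3 stood at 2.77 FPKM untreated, 5.80 after low and 70.3 after high fluence, a log2 ratio of 4.24. Of its 7 transcripts, the first carried most of the signal, at 2.22 FPKM untreated, 4.33 after low and 53.3 after high fluence. The third, LOC_Os03g47610.3, read 14.9 FPKM after high fluence and was listed at 0 in both other libraries. LOC_Os10g31420 on chromosome 10, with a single transcript, stood at 2.28, 1.67 and 52.6 FPKM, a log2 ratio of 4.03. These loci were low in both other libraries, so the log2 ratio depended on the pseudocount. At a pseudocount of 5 it was 3.28 for the first and 2.98 for the second, the lowest values over the alternatives. The highest, 5.10 and 4.88, came from rescaling to the FPKM total of the control.

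In FPKM as deposited, the 3 most abundant higher loci and the 3 most abundant lower loci differed by little more than 2-fold. They were picked with their values known. LOC_Os12g43600 on chromosome 12, the highest of the higher loci by mean level, stood at 4895 FPKM untreated, 6463 after low and 11360 after high fluence, a log2 ratio of 1.21. LOC_Os11g47760 on chromosome 11 stood at 1911, 3325 and 4216 FPKM, a log2 ratio of 1.14. Its main transcript alone had a log2 ratio of 0.88, and the sum passed the threshold with a second transcript, LOC_Os11g47760.2, that was listed at 0 untreated and reached 210 FPKM after low and 702 after high fluence. LOC_Os01g45914 on chromosome 1 stood at 963, 1894 and 2224 FPKM, a log2 ratio of 1.21. Centred on loci of like level the log2 ratios of these 3 loci were 1.53, 1.45 and 1.52, and rescaled to an FPKM total of 1000000 they were 2.08, 2.002 and 2.07.

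Among the lower loci, LOC_Os02g44630 on chromosome 2 had the highest mean level, at 5022 FPKM untreated, 3604 after low and 2281 after high fluence, a log2 ratio of -1.14. LOC_Os02g44630.2 carried most of it, at 4480, 3127 and 1910 FPKM. LOC_Os05g15770 on chromosome 5 stood at 1763, 1306 and 740 FPKM, a log2 ratio of -1.25, and LOC_Os06g02470 on chromosome 6 at 1719, 1189 and 857 FPKM, a log2 ratio of -1.003. In each of these 3 loci low fluence lay between the other libraries. Their log2 ratios kept their sign but not their size. Centred on loci of like level they were -0.83, -0.94 and -0.69. Rescaled to an FPKM total of 1000000 they were -0.28, -0.39 and -0.14. Some less abundant lower loci differed by more as deposited, such as LOC_Os12g36240, with a mean of 925 FPKM, at 3.47-fold lower.

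**Figure D2:**
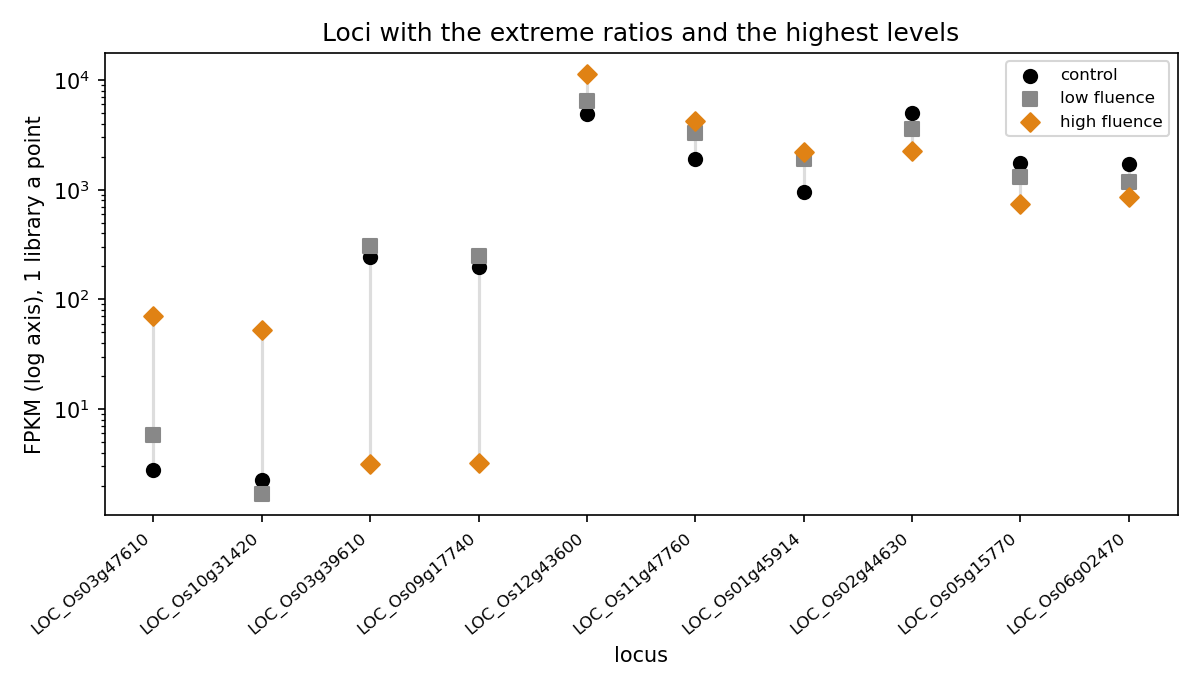
FPKM on a log axis of the 4 loci with the extreme ratios (left) and of the 3 most abundant loci that were higher and the 3 that were lower (right), with 1 symbol for each of the 3 libraries. For the 2 loci with the lowest ratios, control and low fluence lie together at 198 to 309 FPKM and high fluence at 3.18 and 3.23 FPKM. The 3 libraries lie much closer together for the abundant loci shown.

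Abundant loci had lower ratios of high fluence to control than less abundant ones. Of the 3724 loci with a mean of 10 to under 20 FPKM, 2.63% stood at least 2-fold above the control and 4.56% as far below it, and their median log2 ratio was -0.09. Of the 554 loci at 100 to under 200 FPKM, 3.97% were higher and 7.22% lower, with a median of -0.31. Of the 70 loci at 500 FPKM or more, 4 were higher and 9 lower, 5.71% and 12.9%, with a median of -0.43. The place of these medians relative to the control depended on the scaling: at an FPKM total of 1000000 they were 0.66 in the lowest class and 0.44 in the highest, and under median-of-ratios scaling 0.02 and -0.32. The highest class lay below the lowest under each of the 5 scalings run. Each of these multiplies a library by a constant and moves all classes nearly alike, so they could hardly change this order. Centring on loci of like level removes such a trend by construction. The median log2 ratio of low fluence to control stayed between -0.09 and -0.06 in all 6 level classes. Estimated depth also differed between the libraries, at 1.36 times the control for high fluence and 0.497 times for low fluence, and its part in this trend was not tested.

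**Figure D3:**
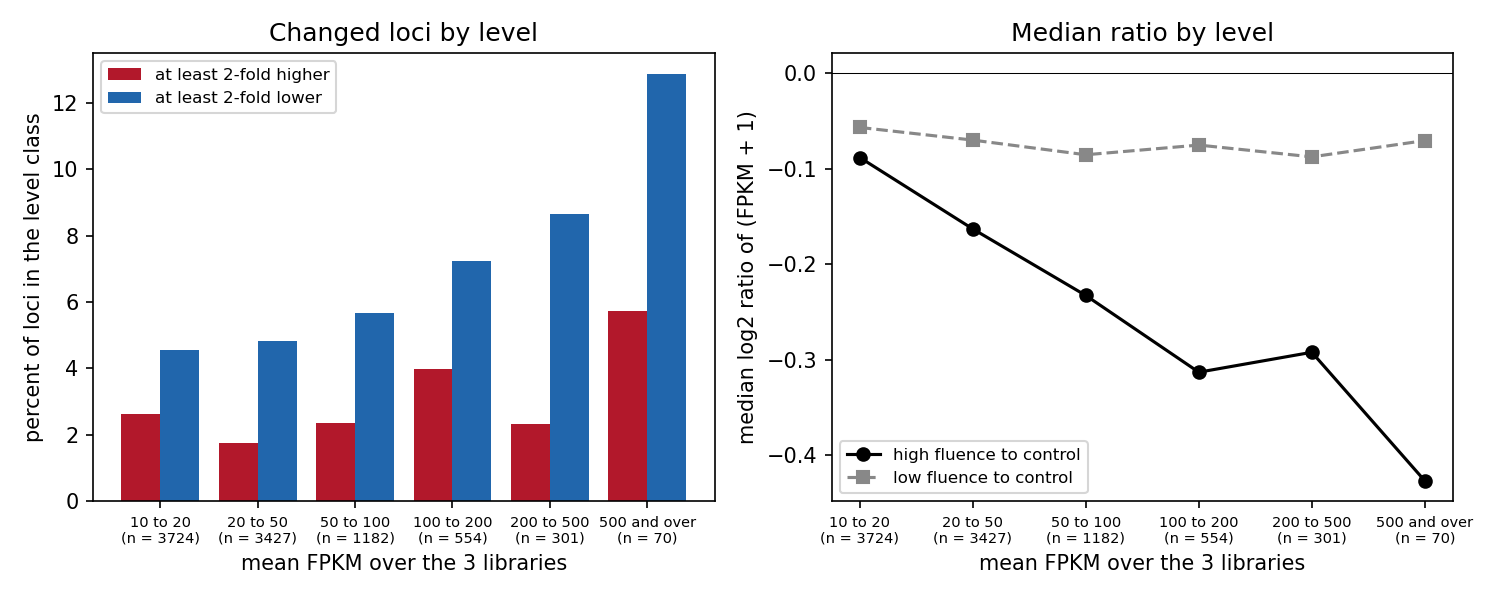
Left, percent of loci at least 2-fold higher (red) and lower (blue) at high fluence in 6 classes of mean FPKM; right, median log2 ratio of FPKM + 1 to control for high fluence (black) and low fluence (grey). The high fluence median runs from -0.09 in the lowest class to -0.43 in the highest, while the low fluence median stays near -0.07.

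Lower loci outnumbered higher ones on all 12 chromosomes in FPKM as deposited. Chromosome 10 had the highest share of lower loci, 43 of 473 (9.09%), where the other chromosomes had 4.33% to 5.93%. It also had the highest share of higher loci, 15 of 473 (3.17%). Chromosome 8 had the lowest share of higher loci, 5 of 595 (0.840%). Its median log2 ratio of -0.18 lay among those of the other chromosomes, which ran from -0.21 to -0.10. Chromosome 10 had a median of -0.15, equal to that of all loci kept.

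**Figure D4:**
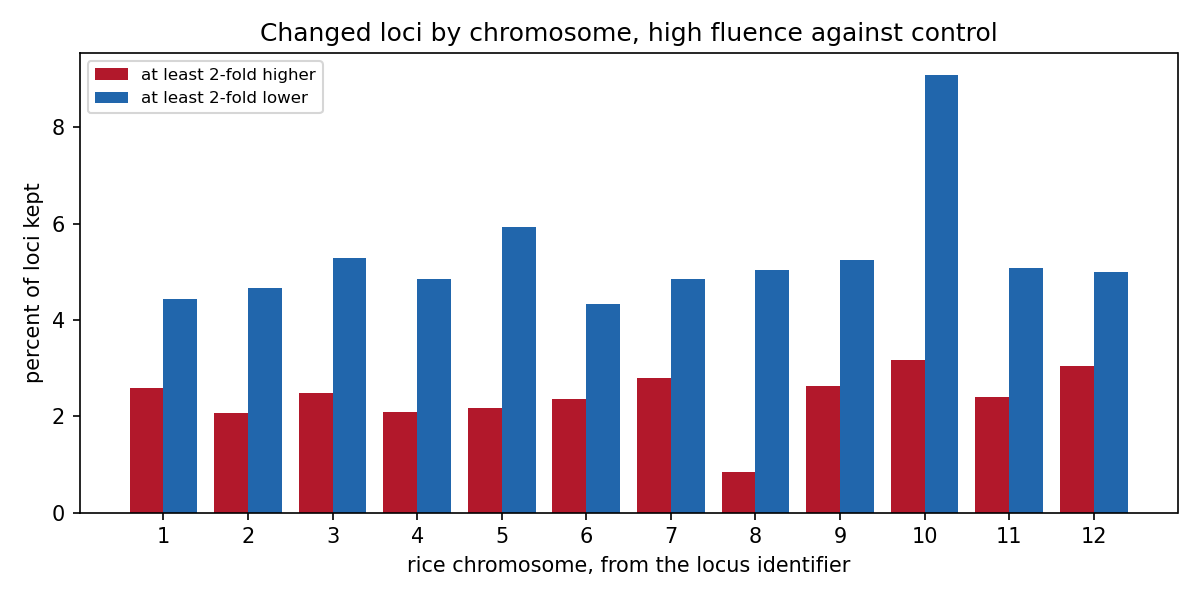
Percent of the loci kept on each of the 12 rice chromosomes that were at least 2-fold higher (red) or lower (blue) at high fluence than in the control. Chromosome 10 has the tallest blue bar, at 9.09%, and chromosome 8 the shortest red bar, at 0.840%.

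Some of the lower loci of chromosome 10 formed a block of neighbours. Of the 477 lower loci, the next locus kept along the chromosome was also lower for 52 (10.9%), where 5.15% of all loci kept were lower. Of the 219 higher loci, the next was also higher for 16 (7.31%), where 2.37% of all were higher. Runs of at least 3 successive loci that differed the same way numbered 9, of which 7 were lower with 27 loci and 2 were higher with 6 loci. Neighbours may be copies of one another with reads in common, whose counting is not stated in the labels or headers. The runs were chosen with their values known.

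The longest run held 7 lower loci, from LOC_Os10g40460 to LOC_Os10g40550 on chromosome 10, and summed to 685 FPKM untreated, 365 after low and 148 after high fluence. Its ratios ran from 2.10-fold to 15.1-fold lower, with a median log2 ratio of -2.22 at high fluence and -0.90 at low fluence. LOC_Os10g40460 stood at 38.2 FPKM untreated, 17.8 after low and 1.59 after high fluence. LOC_Os10g40510, the most abundant of the run, stood at 277, 151 and 55.0 FPKM. All 7 loci had their highest value in the control, an intermediate one at low fluence and their lowest at high fluence. The loci kept on either side, LOC_Os10g40430 and LOC_Os10g40570, had the same order with smaller log2 ratios of -0.91 and -0.37.

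A second stretch of chromosome 10 held loci that differed in both directions. LOC_Os10g31420, described above, and LOC_Os10g31460, at 18.1 FPKM untreated, 31.1 after low and 217 after high fluence, were higher. The next locus kept, LOC_Os10g31510, was lower, at 30.6, 15.9 and 12.1 FPKM. LOC_Os10g31520 after it stayed within 2-fold, at 14.8, 12.4 and 11.7 FPKM. A run of 4 lower loci followed, from LOC_Os10g31530 to LOC_Os10g31640, led by LOC_Os10g31530 at 115, 63.3 and 26.9 FPKM. The sum of that run was 304 FPKM untreated, 240 after low and 108 after high fluence. Loci that stood 11.4-fold higher and 4.16-fold lower than in the control were thus listed close together on the chromosome.

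**Figure D5:**
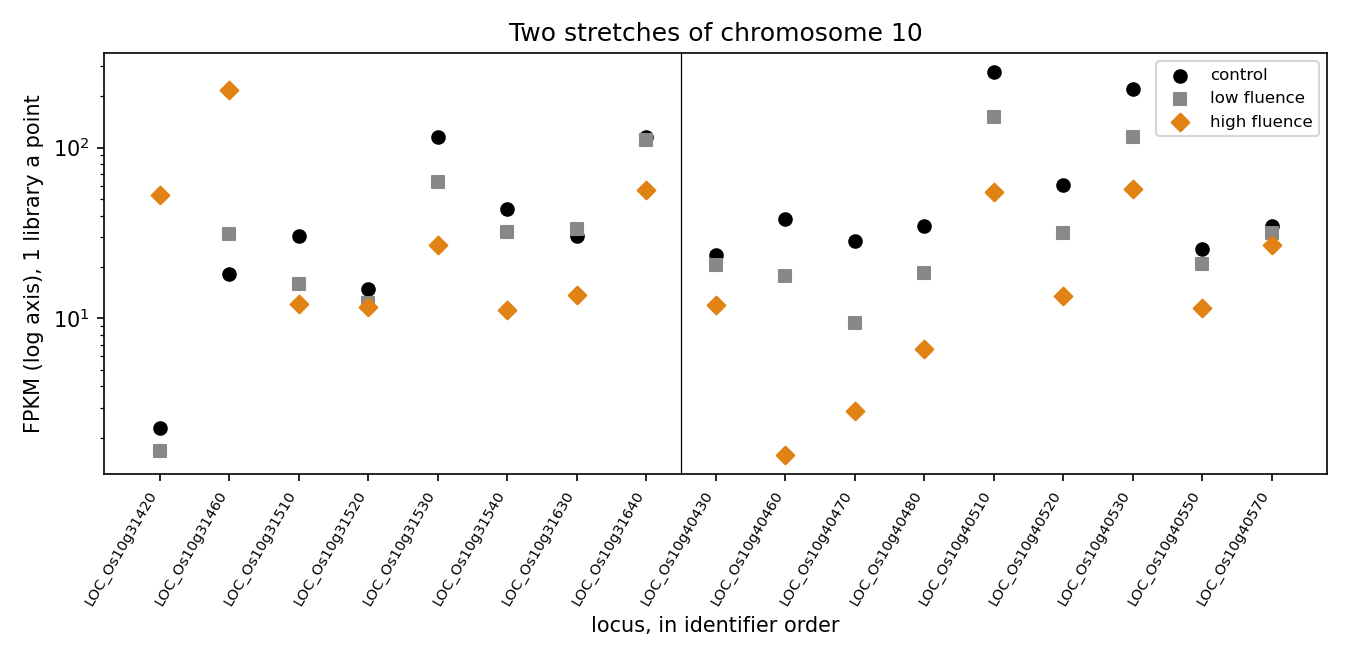
FPKM on a log axis of the loci kept in 2 stretches of chromosome 10, in the order of their identifiers, with 1 symbol for each library; the vertical line divides the stretches. In the left stretch the high fluence symbol is on top for the first 2 loci and at the bottom for the other 6, and in the right stretch it is at the bottom for all 9 loci.

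A run on chromosome 12, from LOC_Os12g36210 to LOC_Os12g36240, held 3 abundant lower loci that summed to 1838 FPKM untreated, 1320 after low and 520 after high fluence. Their ratios lay between 3.08-fold and 3.83-fold lower. The run from LOC_Os08g41860 to LOC_Os08g41940 on chromosome 8 summed to 249, 133 and 69.9 FPKM, and LOC_Os08g41860 alone was 17.8-fold lower. Of the 2 higher runs, that on chromosome 1, from LOC_Os01g71340 to LOC_Os01g71474, summed to 92.9 FPKM untreated, 129 after low and 218 after high fluence. The other higher run, from LOC_Os10g26700 to LOC_Os10g26940, summed to 58.5, 76.4 and 151 FPKM. All of these runs kept the order of control, low and high fluence in their sums. Within the last run, LOC_Os10g26700 had its lowest value at low fluence and LOC_Os10g26850 its highest.

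Loci with a single annotated transcript made up 80.3% of the lower loci, 62.6% of the higher loci and 63.7% of all loci kept. Of the 57 lower loci with at least 2 transcripts at a mean of 1 FPKM or more, all such transcripts were lower in 45, and in 1 a transcript was at least 2-fold higher. Of the 51 higher loci of that kind, all transcripts were higher in 39, and in 0 was a transcript at least 2-fold lower. Since these loci were chosen by the sum of their transcripts, the choice largely fixes this agreement. Transcripts of a locus also share reads, and their FPKM values are estimates that can trade signal with each other.

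A few loci kept their sum while their transcripts diverged. Among the 445 loci kept with at least 2 transcripts at a mean of 10 FPKM or more, 8 stayed within 1.5-fold as a sum while one such transcript was higher and another lower by 2-fold or more. The 2 with the widest divergence were picked after their values were seen. In LOC_Os02g39720, LOC_Os02g39720.3 stood at 95.6 FPKM untreated and 18.4 after low fluence and was listed at 0 after high fluence, while LOC_Os02g39720.4 stood at 46.5, 137 and 169 FPKM. These 2 transcripts thus exchanged their order between control and both irradiated libraries. The most abundant transcript of the locus in each library was LOC_Os02g39720.2, at 118, 163 and 180 FPKM. In LOC_Os11g06390, LOC_Os11g06390.2 stood at 0.506, 4.32 and 32.9 FPKM and LOC_Os11g06390.6 at 18.1, 34.1 and 6.23 FPKM, beside a main transcript, LOC_Os11g06390.5, at 176, 134 and 165 FPKM.

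Assembled transcripts without a gene assignment are listed among the annotated ones and can take part of a locus's reads. Of the 477 lower loci, 208 stood beside such a unit in the files, and in 8 (1.68%) the unit was at least 2-fold higher and brought the difference under 1.5-fold once added. Of the 219 higher loci, 130 stood beside one and 5 (2.28%) were offset in this way. These percentages are of all lower or all higher loci, though only a locus beside a unit could be offset, so they are not comparable. How many of all loci kept stood beside a unit was not worked out, so the 208 and 130 have no background. Without the 13 offset loci the counts were 214 higher and 469 lower.

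The 2-fold threshold cut through a continuous range of ratios. The nearest loci inside it were 2.003-fold and 2.005-fold higher and 2.004-fold lower, and the nearest outside it 1.997-fold and 1.996-fold higher and 1.9999-fold and 1.999-fold lower. LOC_Os06g02470, described above, was 2.004-fold lower. At a ratio of 1.5, 687 loci were higher and 1601 lower.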

How the data were processed

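RNA of 3 pooled libraries of rice seedlings was sequenced. The authors deposited 1 FPKM value for each of 87523 transcripts per library, per the file headers. The submitters' processing notes name TopHat2 2.0.5. The assembler, FPKM estimator, build, annotation and strand setting are not given in the sources used. FPKM was summed over the transcripts of each LOC_Os locus, filtered as described above, and compared as log2 ratios after adding 1 FPKM, a scale on which changes of low loci come out too small. The calling code was checked on simulated tables with known changes, which is no test of the observed calls. Total counts are not given with FPKM. Relative depth was estimated from single-transcript loci with values under 0.2 FPKM in both libraries. The step between libraries was the value, among those tried, with the largest share of their ratios within 1% of it. At that step, 77.0% (high fluence, 983 loci) and 82.6% (low fluence, 559 loci) of ratios lay within 1% of the step times a ratio of whole numbers up to 6. The median share over all steps tried was 3.81% and 2.33%. The step was chosen on the same loci. No interval is given. Named loci are the 2 highest and 2 lowest ratios; other loci were picked with their values known. The loci and settings were chosen with earlier results of these data known. The gene lists planned as patterns on gene descriptions were not run, since identifiers did not match. Alternatives were other pseudocounts, filters, scalings, thresholds and single transcripts. Python 3.11.15, pandas 2.3.3, numpy 2.4.6 and matplotlib 3.10.9 were used.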

Additional observations from a re-analysis of the deposited data

Results flagged for a closer look

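Among the loci kept, 4 stood at least 2-fold above the control in one irradiated library and at least 2-fold below it in the other; with 1 library a group this difference in direction was not tested. The log2 ratios of LOC_Os01g52240 were 1.10 after low and -2.48 after high fluence, and those of LOC_Os12g11980 were 2.33 and -2.17. LOC_Os08g04210 had -1.08 and 3.003, and LOC_Os07g08340 -1.45 and 1.45. LOC_Os12g11980 stood beside the assembled unit CUFF.4001, at 14.4 FPKM untreated, 22.3 after low and 32.6 after high fluence, which brought its log2 ratio of high fluence to control to 0.45 once added.

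Outside the annotated loci, CUFF.8170 and CUFF.4318, both assembled units, reached 19805 and 14826.5 FPKM after high fluence and were listed at 0 otherwise.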

How the results depend on the processing

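With 219 loci higher and 477 lower as reported, a pseudocount of 5 gave 137 and 313, and a minimum mean of 50 gave 61 and 142. No filter on the mean gave 713 and 1145, with loci still required to be above 0 in all 3 libraries. A ratio of 1.5 gave 687 and 1601, and a ratio of 3 gave 43 and 130. A minimum mean of 5 gave 350 higher. Centring on bins of level gave 349 higher, with 49.0% of differing loci lower in place of 68.5%. That share was 56.1% under median-of-ratios and 57.5% under upper-quartile scaling. Settings added after the data were seen gave 1043 higher and 45 lower (4.14% lower) at an FPKM total of 1000000, 2655 and 92 (3.35%) at the total of the control, and 411 higher (43.8% lower) at its annotated total. A pseudocount of 0.1, keeping loci listed at 0 and each transcript on its own moved neither count by over 1.5 times. None of the 10 named loci changed direction under any alternative run. Of their 130 values, 22 moved by over 1.5-fold and 108 did not. Settings that only changed which loci were counted leave these log2 ratios as they are, so many of the 108 could not move. Medians over gene lists were not run. No paired analysis was possible because each group has 1 library. Depth limits low loci, and no replicate bounds the error of any ratio.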
